A study of Mus musculus with 92 samples.

Results

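Blastomeres of 8-cell mouse embryos that had received let-7d or let-7e were set against blastomeres that had received another microRNA, named mi699a-5p in the labels, to describe what distinguishes let-7 injection from the injection of an unrelated microRNA. The members were chosen by treatment label. They comprised 11 of the 14 mouse ids in the deposited counts, 7 with let-7 (3 Let7d and 4 Let7e) and 4 with mi699a-5p, and 59 of the 81 cells. The negative control mouse ids were left out. A change made by let-7 therefore cannot be told apart from an opposite change made by mi699a-5p. All zygotes were wild-type C57BL/6N, and every group had been microinjected and kept in culture until the embryos had 8 cells and were taken apart. Smart-seq2, which amplifies full-length cDNA of 1 cell and attaches no molecular identifiers, gave 1 library per blastomere.

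The let-7 microRNAs are loaded into Argonaute proteins and pair through their seed, the bases near the 5′ end, with sites in the 3′ untranslated regions (UTRs) of messenger RNAs, which are then translated less and degraded faster. Mature let-7 is scarce in pluripotent cells, where Lin28 proteins block its maturation, and accumulates as cells differentiate. Among its best known targets are Hmga2, a chromatin architectural protein, Lin28a itself, the ubiquitin ligase Trim71 and the RNA-binding Igf2bp proteins.

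The mature sequences of both injected let-7 microRNAs (RefSeq, GRCm38.p6) are shown because their shared seed defines the sites searched for here. Bases 2 to 8, the seed, are in capitals.
mmu-let-7d-5p: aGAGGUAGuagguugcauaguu
mmu-let-7e-5p: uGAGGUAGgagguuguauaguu
Both are 22 bases long. They lie at chr13:48536078-48536099 on the minus strand (let-7d) and chr17:17830366-17830387 on the plus strand (let-7e). They share the seed and differ at 3 positions, A1U, U9G and C16U, counted from the 5′ end with the base of let-7d first. The reference tables used here hold no entry of the name mi699a-5p, so its sequence is not printed.

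The DNA letters complementary to the seed followed by an A, CTACCTCA, form an 8mer site. The shorter forms are the 7mer-m8, CTACCTC, and the 7mer-A1, TACCTCA, each counted only outside an 8mer and read on the transcribed strand of the 3′ UTR. For the best known targets, and for Trim6, a gene described below, the first 8mer of the longest annotated 3′ UTR is shown in capitals (GRCm38, 5′ to 3′ of the transcript).
Hmga2: gacattcaatttCTACCTCAgcat
Trim71: attgcctaagtcCTACCTCAgctt
Lin28a: cagcctgttgaaCTACCTCAtttt
Igf2bp1: gtgcgaagtaaaCTACCTCAaggt
Igf2bp2: cacaaataaaagCTACCTCAggtg
Igf2bp3: atttttactcaaCTACCTCAggta
Trim6: ctgattatagatCTACCTCAcagt
These 24-base windows lie at chr10:120364220-120364243 (Hmga2), chr9:114512468-114512491 (Trim71), chr4:134005185-134005208 (Lin28a), chr11:95961774-95961797 (Igf2bp1), chr16:22059469-22059492 (Igf2bp2), chr6:49086783-49086806 (Igf2bp3) and chr7:104233461-104233484 (Trim6). All are on the minus strand except that of Trim6. Hmga2 carried 7 sites of any form, Trim71 and Trim6 carried 6 each, Igf2bp1 carried 5, Lin28a and Igf2bp2 carried 2 each and Igf2bp3 carried 1. Of the 7576 measured genes with an annotated 3′ UTR, 17% held at least 1 site of any form and 3.78% held an 8mer.

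Counts were summed over the cells of a mouse id, which gave 6329464 to 24037593 reads. The labels do not say whether mouse ids are separate embryos, so p-values measure the spread between these mouse ids only. Reads per cell averaged 3171700 ± 407281 (SD, n = 7) in let-7 and 2216580 ± 212005 (n = 4) in mi699a-5p, and the groups did not overlap (two-sided exact permutation p = 0.00303, the smallest that 330 assignments allow; adjusted p = 0.0182 over 6 quality measures). The other 5 measures, among them genes per cell and the shares of ribosomal RNA and of mitochondrially encoded messenger RNA, had adjusted p = 0.655. Let7e replicate 3, with 2 cells, stood apart on the first principal component, at -137 against 0.97 to 20.5 for the other 10. Blastomere markers were present, with 14 of 15 measured, while the table held 2 of 18 cumulus markers, 1 of 18 sperm transcripts and 0 of 17 blood, skin and stromal markers. Of the cumulus genes, Gja1, which blastomeres also express, was 0.59 ± 0.19 higher in let-7 on the log2 scale and the receptor gene Amhr2 0.76 ± 0.26 higher. Both were higher at an unadjusted edgeR p under 0.05, as were 2.95% of all genes, and 1 of them did not overlap between the groups. Their median level per mouse id, as log2(CPM + 1) centred per gene, did not overlap either. It ran from -0.022 to 0.44 in let-7 and from -0.73 to -0.23 in mi699a-5p. Together the 2 genes took 0.0938% to 0.171% of reads in let-7 and 0.0644% to 0.104% in mi699a-5p, and their part in the results was not tested. In 2 of the 7 let-7 and 1 of the 4 mi699a-5p mouse ids, cells had Xist and none had Y-linked transcripts above 5 CPM. Of the others, Let7e replicate 1 had Xist in 5 and Y-linked transcripts in 2 of its 6 cells. In mi699a-5p replicate 4, of 4 cells, these were 3 and 1. Let7e replicate 3 had Y-linked transcripts in its 2 cells, and 1 of these also had Xist. Summed Xist there was 5.06 CPM, against 355 CPM in Let7e replicate 1 and 327 CPM in mi699a-5p replicate 4.

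Across all 7886 genes, no gene passed an adjusted p of 0.05 by edgeR's quasi-likelihood test (0%; smallest adjusted p = 0.720). At an unadjusted p under 0.05 there were 441 genes (5.59%), of which 233 (2.95%) were higher and 208 (2.64%) lower in let-7. DESeq2, the second count test, called 5 of 7881 genes (0.0634%), namely Cops7a, Ankrd17, Pink1 and Mga as higher and Fundc1 as lower. In 80 genes (1.01%) the 7 let-7 values and the 4 mi699a-5p values did not overlap, with let-7 above in 43 (0.545%) and below in 37 (0.469%). In simulated counts of this design, edgeR called 20 of 100 genes changed by 1 on the log2 scale and 64 of 100 changed by 2. The genes described below are therefore ranked by their unadjusted p, and apart from those 5 DESeq2 calls none passed a test. Where the groups did not overlap in a gene ranked this way, that comes from the same values as its p and is no separate support.

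**Figure D1:**
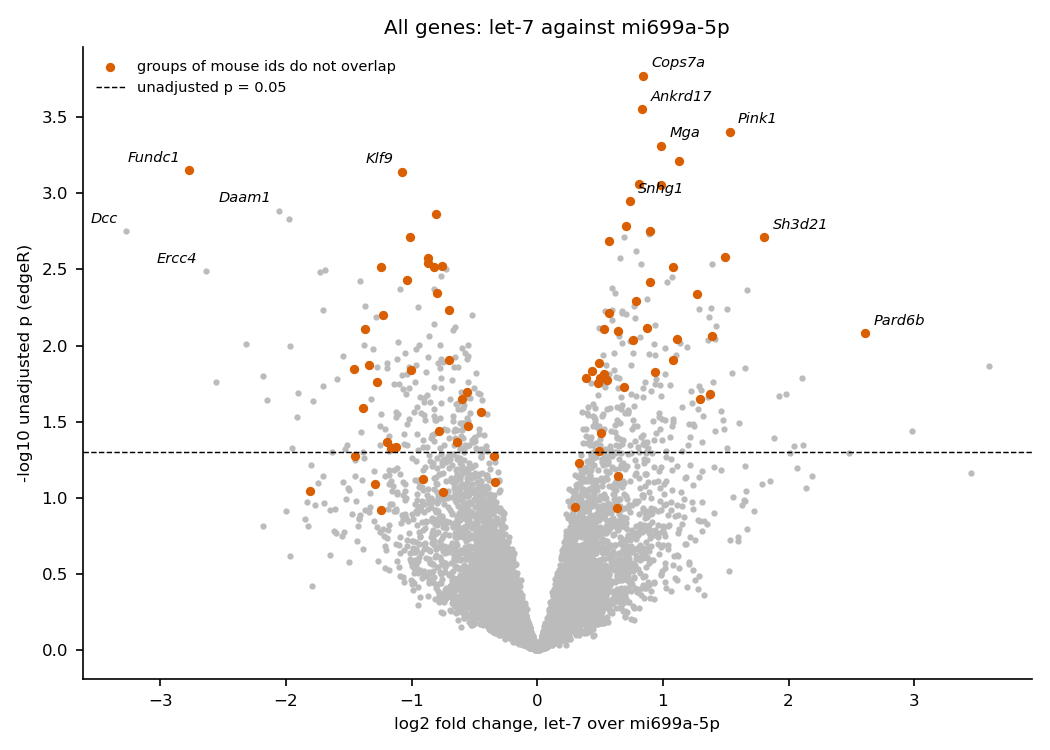
Log2 fold change of let-7 over mi699a-5p (x axis) against the unadjusted edgeR p as -log10 (y axis) for all 7886 genes. Orange points are the 80 genes whose groups of mouse ids do not overlap, and the dashed line marks an unadjusted p of 0.05; Cops7a lies highest.

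Pink1, the kinase that marks damaged mitochondria for removal by mitophagy, had 26.8, 38.9 and 62.8 CPM (counts scaled to library size by edgeR; lowest, median and highest) in let-7, against 16.4, 9.31, 13.4 and 18.8 CPM in mi699a-5p. Every let-7 mouse id lay above every mi699a-5p one. The difference was 1.53 ± 0.35 on the log2 scale (SE; edgeR p = 0.000393, adjusted p = 0.720; DESeq2 adjusted p = 0.0302), and thinning all mouse ids to one depth left it at 1.51. Fundc1, an X-linked receptor on the outer mitochondrial membrane that also recruits the mitophagy machinery, pointed the other way. It had 0.77, 10.1 and 23.3 CPM in let-7 (lowest, median and highest), against 37.3, 190, 53.5 and 24.3 CPM in mi699a-5p. The groups did not overlap, but the highest let-7 value was close to the lowest mi699a-5p one and a single mi699a-5p mouse id stood far above the rest. The log2 difference was -2.77 ± 0.67 (edgeR adjusted p = 0.720; DESeq2 adjusted p = 0.0338), and -1.77 without that mouse id, mi699a-5p replicate 2. With the level of Y-linked transcripts as a covariate it was -2.79.

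Another mitophagy receptor, Bnip3l (also called Nix), had 229, 259 and 327 CPM in let-7 (lowest, median and highest), against 454, 370, 419 and 288 CPM in mi699a-5p. The 5 lowest of all 11 values were in let-7, but the groups overlapped, and the log2 difference was -0.52 ± 0.17 (edgeR adjusted p = 0.739). The adaptor Sqstm1, which ties ubiquitin-tagged cargo to autophagosomes, was picked out after its values were seen. It had 52.8, 81.2 and 156 CPM in let-7 (lowest, median and highest), against 134, 179, 174 and 150 CPM in mi699a-5p, and 5 of the 7 let-7 mouse ids lay below all of mi699a-5p. Its log2 difference from mi699a-5p was -1.35 in Let7e and -0.23 in Let7d (Let7e minus Let7d -1.12 ± 0.24, edgeR adjusted p = 0.551). Of 11 measured mitophagy receptors and adaptors, a group also assembled after the values were seen, 4 were above 0 and 7 below, and Bnip3, Bcl2l13 and Phb2 were each within 0.04 of 0. The wider list of mitochondrial dynamics, import and mitophagy held 35 measured genes, of which 1 was higher (2.86%, against 2.95% of all genes) and 2 were lower (5.71%, against 2.64%) at an unadjusted p under 0.05, with a median log2 difference of -0.04 against 0.00 for all genes.

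Cops7a, a subunit of the COP9 signalosome, which removes the ubiquitin-like NEDD8 from cullin ubiquitin ligases, had the smallest p of all genes. It had 327, 462 and 499 CPM in let-7 (lowest, median and highest), against 273, 262, 214 and 207 CPM in mi699a-5p. No let-7 mouse id overlapped with mi699a-5p, and the log2 difference was 0.84 ± 0.18 (edgeR p = 0.000169, adjusted p = 0.720; DESeq2 adjusted p = 0.0233). Another subunit, Cops6, was 0.57 ± 0.16 higher, again with no overlap, at 362 ± 44.8 CPM in let-7 and 244 ± 18.8 CPM in mi699a-5p (SD, n = 7 and 4). Over the 10 measured subunits of the complex, a group assembled after the values were seen, 7 were above 0 and 3 below, the median was 0.16, and Cops3 and Cops4 stood at -0.42 and -0.00065.

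The remaining DESeq2 calls were Ankrd17 and Mga. Ankrd17, an ankyrin-repeat protein, had 219, 257 and 326 CPM in let-7 (lowest, median and highest), against 141, 174, 138 and 136 CPM in mi699a-5p. Mga, a partner of Max in a Polycomb complex that silences germ cell genes in pluripotent cells, had 103, 147 and 206 CPM in let-7, against 79.5, 61.9, 88.5 and 71.4 CPM in mi699a-5p. Both genes were higher in every let-7 mouse id than in any mi699a-5p one, by 0.83 ± 0.18 and 0.99 ± 0.23 on the log2 scale (DESeq2 adjusted p = 0.0302 and 0.0468). Of 10 other measured members of the Mga complex, assembled after the values were seen, 5 lay above and 5 below 0.

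These 5 calls depended on which mouse ids were in the fit. Leaving out 1 mouse id at a time, DESeq2 called 2 to 17 genes, 2 without mi699a-5p replicate 1, 3 without Let7d replicate 3, 9 without Let7e replicate 4, 10 each without Let7e replicate 1 or 3, and 17 without mi699a-5p replicate 3. Between 1 and 4 of the 5 genes were still called, where DESeq2 gave no adjusted p for Pink1 in 3 of these fits and for Fundc1 in 2. edgeR called 0 genes without any single mouse id, and its smallest adjusted p was 0.135, without mi699a-5p replicate 3.

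Other leading genes higher in let-7 came from several compartments. Fdx1, the mitochondrial ferredoxin that passes electrons to enzymes of steroid, lipoate and iron-sulfur synthesis, had 79.4 ± 14.2 CPM in let-7 and 36.3 ± 11.3 CPM in mi699a-5p, a log2 difference of 1.13 ± 0.27. A pair of selenoproteins of the endoplasmic reticulum, Selenos and Selenot, were 0.71 ± 0.19 and 0.90 ± 0.24 higher. Eif2d, a non-canonical translation initiation factor, was 0.98 ± 0.24 higher, and the phosphatase gene Dusp12 0.81 ± 0.20. For each of these 5 genes the groups of mouse ids did not overlap. Tacc1, a coiled-coil protein of the centrosome, the lysosomal lipid transporter gene Spns1 and the cytochrome P450 gene Cyp2s1 were 0.69 to 0.89 higher with overlapping groups. Sh3d21, which encodes an SH3 domain protein, differed more in Let7d than in Let7e, by 2.47 and 0.97 over the same mi699a-5p mouse ids (Let7e minus Let7d -1.51 ± 0.42, edgeR adjusted p = 0.929).

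Among the leading lower genes, Klf9, a zinc-finger transcription factor, had 38.8 ± 7.05 CPM in let-7 and 81.8 ± 27.4 CPM in mi699a-5p, a log2 difference of -1.07 ± 0.26. Lypla1, a thioesterase that strips palmitate from proteins, had 56.6, 70.8 and 103 CPM in let-7 (lowest, median and highest), against 116, 124, 154 and 132 CPM in mi699a-5p. Clybl, a mitochondrial citramalyl-CoA lyase, had 26.8 ± 5.5 CPM in let-7 and 54.0 ± 9.87 CPM in mi699a-5p. In all 3 genes every let-7 mouse id lay below every mi699a-5p one. The same held for Smpd1, the acid sphingomyelinase of lysosomes (-0.87 ± 0.25), Calu, a calcium-binding protein of the endoplasmic reticulum (-0.76 ± 0.22), Urod, an enzyme of heme synthesis (-0.82 ± 0.24), the spliceosome factor gene Cwc22 (-0.87 ± 0.25, and -0.55 without mi699a-5p replicate 2) and 4930522L14Rik (-1.25 ± 0.36). Taf7, a subunit of the general transcription factor TFIID, was lower (-0.73 ± 0.21), with overlapping groups.

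Several lower genes with large differences had their highest value in mi699a-5p replicate 2. Akap10, an anchor of protein kinase A, had 4.18, 8.64 and 13.0 CPM in let-7 (lowest, median and highest), against 10.4, 82.0, 27.0 and 16.6 CPM in mi699a-5p. The groups overlapped, with 5 of the 7 let-7 mouse ids below all of mi699a-5p. Its log2 difference of -1.98 ± 0.52 was -1.06 without mi699a-5p replicate 2. The same mouse id was the highest of the mi699a-5p group in 8 of the 15 leading lower genes (53.3%), among them also Daam1, a formin of planar polarity signalling, the netrin receptor gene Dcc and the DNA repair nuclease gene Ercc4. Over all 208 lower genes at an unadjusted p under 0.05 it was the highest of its group in 28.8%, and over all genes in 24.3%.

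**Figure D2:**
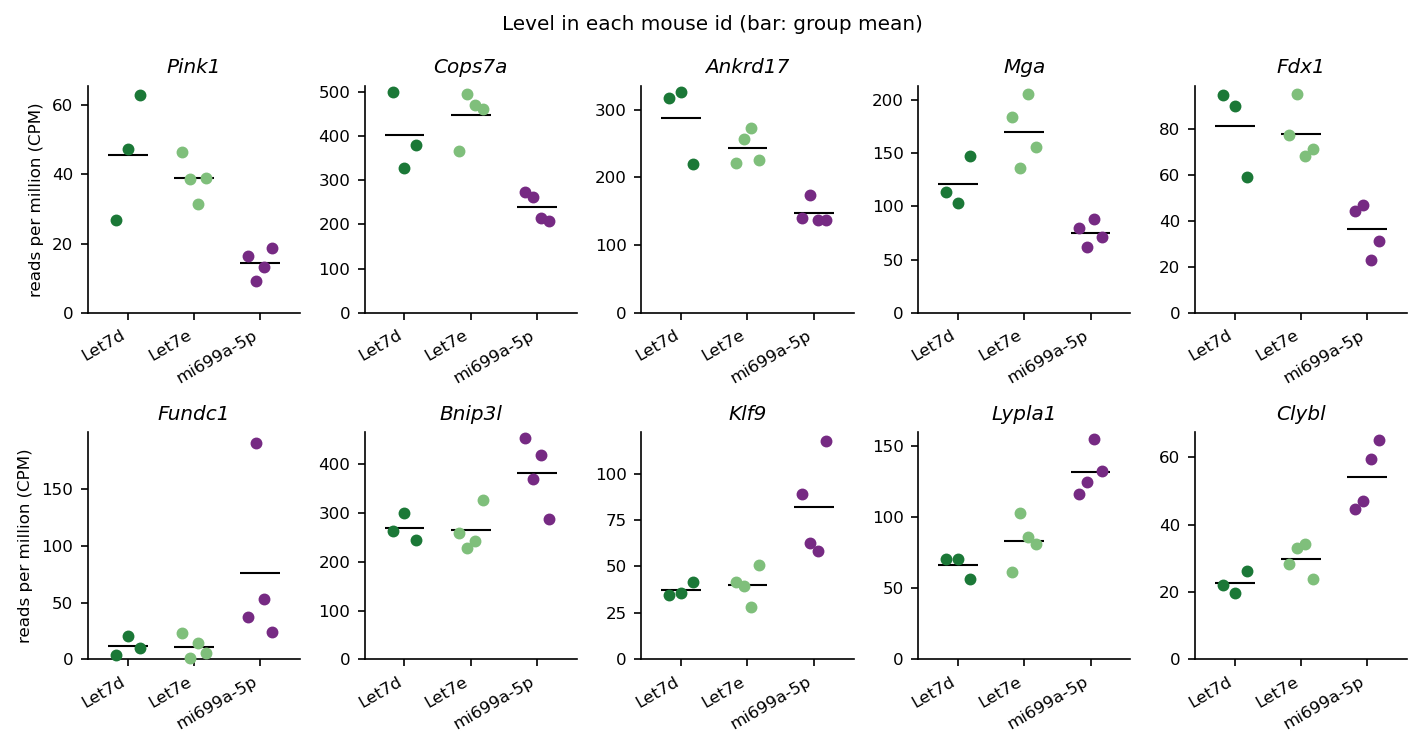
CPM (y axis) in each Let7d, Let7e and mi699a-5p mouse id for 10 genes, each point 1 mouse id and each bar the mean of its group. The upper row is higher in every let-7 mouse id, and in the lower row only Bnip3l overlaps between let-7 and mi699a-5p; 1 mi699a-5p mouse id sets most of the Fundc1 mean.

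The question of direct let-7 targets was addressed by the literature list and by the seed matches. Of 49 listed targets, 35 were measured. Their median log2 difference was -0.07, with 14 above and 21 below 0 (60% below, against 50.1% of all genes). At an unadjusted p under 0.05, 1 was higher (2.86%, against 2.95% of all genes) and 1 lower (2.86%, against 2.64%). These shares were close to those of all genes. The median was 0.02 in Let7d and -0.14 in Let7e over the same mi699a-5p mouse ids. Hmga2 had 79.6, 154 and 196 CPM in let-7 (lowest, median and highest), against 244, 140, 185 and 155 CPM in mi699a-5p. The values overlapped widely and the log2 difference was -0.34 ± 0.26 (edgeR adjusted p = 0.974), at -0.15 in Let7d and -0.51 in Let7e. Trim71, with 4 8mers, had 155, 234 and 500 CPM in let-7, against 288, 263, 402 and 372 CPM in mi699a-5p. Its highest and lowest values were both in let-7, and the log2 difference was -0.17 ± 0.31.

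Lin28a, whose protein blocks let-7 maturation, averaged 71.0 ± 20.2 CPM in let-7 and 56.0 ± 24.2 CPM in mi699a-5p (log2 difference 0.34 ± 0.33). Igf2bp1, with 5 sites, differed by 0.16 ± 0.22, Igf2bp2 by less than 0.01 and Igf2bp3 by 0.29 ± 0.44. Arid3b, a DNA-binding protein with 5 sites, differed by -0.39 ± 0.40, and the germ cell nuclear factor Nr6a1, with 8 sites, by -1.17 ± 0.62. Neither passed. Without Let7e replicate 3, the mouse id of 2 cells, which had 44.5 CPM of Nr6a1 against 3.33 to 15.4 CPM in the other 6 let-7 mouse ids, the difference for Nr6a1 was -1.82 (edgeR unadjusted p = 0.0031). The 1 listed target higher at an unadjusted p under 0.05 was Nras, a small GTPase of the Ras family, known as let-7 targets from worms and human cells. It had 109, 165 and 268 CPM in let-7, against 58.4, 162, 138 and 106 CPM in mi699a-5p, with 6 let-7 mouse ids above all of mi699a-5p (0.66 ± 0.28, edgeR adjusted p = 0.860, and 0.44 without mi699a-5p replicate 1). The 1 lower target was Tgfbr1, a TGF-beta receptor, at 9.88 ± 3.81 CPM in let-7 and 22.01 ± 12.1 CPM in mi699a-5p (-1.16 ± 0.54, edgeR adjusted p = 0.888), where mi699a-5p replicate 1, at 4.07 CPM, was lowest of all. The cell cycle targets Ccnd1, Ccnd2 and Cdc25a differed by 0.66 ± 0.63, 0.89 ± 0.78 and -0.08 ± 0.30, and Dicer1, the microRNA-processing ribonuclease, by 0.07 ± 0.42. The difference for Ccnd1 was 1.81 without mi699a-5p replicate 3 and 0.39 without mi699a-5p replicate 2, and that for Ccnd2 was 0.38 without Let7e replicate 3 and 1.52 without mi699a-5p replicate 1.

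**Figure D3:**
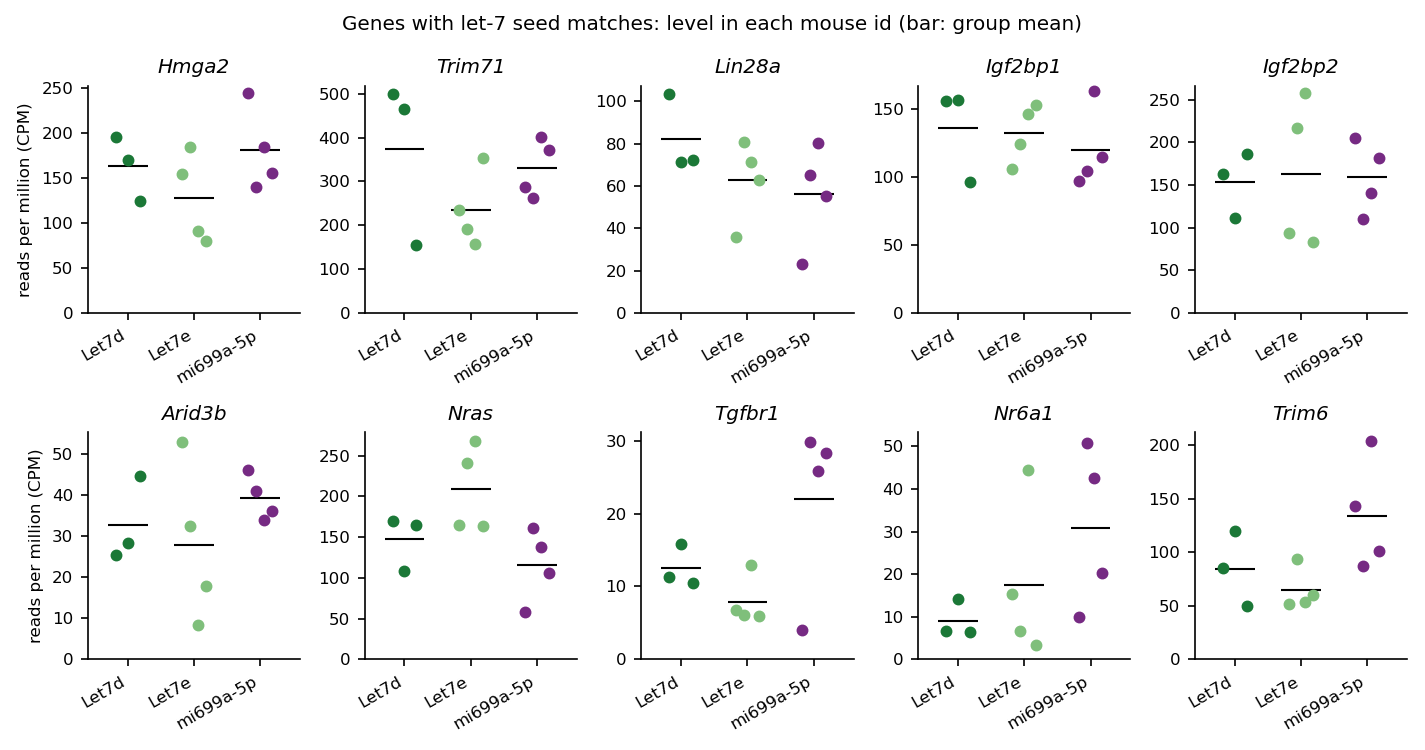
CPM (y axis) in each Let7d, Let7e and mi699a-5p mouse id for 10 genes, 9 of them listed let-7 targets and the other Trim6; bars are group means. The groups overlap in all 10 genes, and Nras lies higher in let-7 on average.

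When all genes were sorted by their let-7 sites, the median log2 difference was 0.0023 for the 6290 genes with no site, -0.01 for the 1029 with 1 site, -0.08 for the 257 with 2 or more and -0.17 for the 57 with 3 or more. Of those 57 genes, 34 (59.6%) lay below 0, against 3126 of the 6290 without a site. The median for 3 or more sites was -0.15 in Let7d and -0.18 in Let7e over the same mi699a-5p mouse ids, and -0.14 without Let7e replicate 3. It was -0.06 without mi699a-5p replicate 3 and -0.07 without replicate 4 of that group. Per mouse id, the median level of these 57 genes, as log2(CPM + 1) centred per gene, ran from -0.17 to 0.09 in let-7 and from 0.0037 to 0.24 in mi699a-5p, and the groups overlapped.

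Genes with more sites also had longer 3′ UTRs, with a median of 5173 bases for 3 or more sites and 977 for none. Among the longest 3′ UTRs, when genes were split into 3 equal classes by that length, the median log2 difference was -0.12 for the 55 genes with 3 or more sites and -0.02 for the 1683 with none. Length still differed within that class, with a median of 5512 bases for 3 or more sites and 2770 for none. The 286 genes with at least 1 8mer had a median of -0.03, with 153 below 0, and at an unadjusted p under 0.05 there were 8 lower (2.8%, against the 2.64% of all genes) and 1 higher (0.35%, against 2.95%). In the class of shortest 3′ UTRs the median for 8mer genes was above 0, at 0.19 over 19 genes.

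Of the 57 genes with 3 or more sites, 3 were lower (5.26%, against 2.64% of all genes) and 0 higher (against 2.95%) at an unadjusted p under 0.05, and they are named after their values were seen. Trim6, a ubiquitin ligase of the tripartite motif family with 5 8mers, had 49.4, 59.7 and 120 CPM in let-7 (lowest, median and highest), against 143, 86.6, 204 and 101 CPM in mi699a-5p. In let-7, 5 of the 7 mouse ids lay below all of mi699a-5p, and the log2 difference was -0.86 ± 0.29 (edgeR adjusted p = 0.772). Cbl, a ubiquitin ligase for activated receptor tyrosine kinases, differed by -0.82 ± 0.25 and Dffa, the inhibitor of the caspase-activated DNase, by -0.84 ± 0.37, with 6 of 7 let-7 mouse ids below all of mi699a-5p in each.

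**Figure D4:**
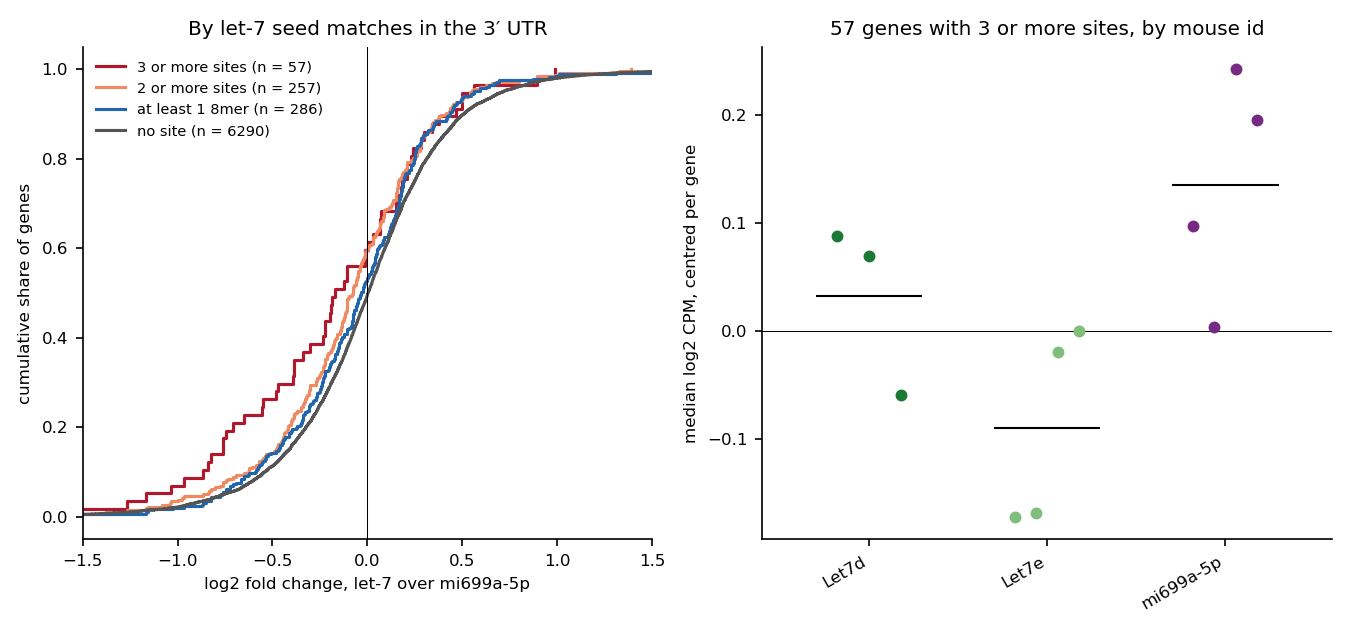
Left, cumulative share of genes (y axis) by log2 fold change of let-7 over mi699a-5p (x axis, shown from -1.5 to 1.5) for classes of let-7 sites; right, the median of log2(CPM + 1) centred per gene over the 57 genes with 3 or more sites, in each mouse id, with bars at group means. The curve for 3 or more sites lies left of that for no site over the lower part of the range, and the mouse ids overlap between let-7 and mi699a-5p.

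Genes of the microRNA pathway itself did not pass the test. Of 32 measured genes of microRNA processing and silencing 0 had an unadjusted p under 0.05, and the median log2 difference was 0.11, but 0.04 in Let7d and -0.03 in Let7e fitted apart. The smallest p values belonged to Cnot3, of the CCR4-NOT deadenylase (0.72 ± 0.35), Pan3, of the PAN2-PAN3 deadenylase (0.35 ± 0.17), and Ago2, the slicing Argonaute (0.50 ± 0.26).

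Genes of oxidative phosphorylation (OXPHOS) lay mostly a little below 0, meaning lower in let-7, though not in Let7e for those encoded in the mitochondrial genome. Of the nuclear genes, 23 of 36 for complex I, 16 of 24 for complexes II to IV and 14 of 18 for ATP synthase lay below 0, with medians of -0.09, -0.18 and -0.18. Of all genes, 50.1% lay below 0. Per mouse id, the median level of each of these lists, as log2(CPM + 1) centred per gene, overlapped between the groups. For complex I it ran from -0.16 to 0.49 in let-7 and from -0.40 to 0.60 in mi699a-5p. At an unadjusted p under 0.05 there were 3 lower in complex I (8.33%), namely Ndufa11, Ndufb2 and Ndufb6, and 1 in complexes II to IV (4.17%), Uqcrh, a hinge protein of complex III, against 2.64% of all genes. Uqcrh had 58.7, 81.5 and 142 CPM in let-7 (lowest, median and highest), against 285, 211, 90.0 and 92.3 CPM in mi699a-5p. Replicates 1 and 2 of mi699a-5p were high and the other two lay within the let-7 range, and the log2 difference was -0.87 ± 0.31 (edgeR adjusted p = 0.789). The same mi699a-5p mouse ids were the high ones for Ndufa11 (138, 105, 66.2 and 65.8 CPM), Ndufb6 (132, 78.8, 34.2 and 41.9 CPM) and the mitochondrial ribosomal protein gene Mrpl32 (143, 91.2, 54.4 and 59.7 CPM). Without mi699a-5p replicate 1 the log2 differences were -0.50 for Uqcrh, -0.36 for Ndufa11, -0.27 for Ndufb6 and -0.23 for Mrpl32.

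The 7 measured mitochondrially encoded OXPHOS genes had a median log2 difference of -0.15, but -0.68 in Let7d and 0.12 in Let7e over the same mi699a-5p mouse ids. mt-Co1, the catalytic subunit of complex IV, had 2418, 3882 and 7264 CPM in let-7 (lowest, median and highest), against 4654, 5977, 5977 and 4866 CPM in mi699a-5p. Of the 7 let-7 mouse ids, 5 lay below all of mi699a-5p and 1 above, for a log2 difference of -0.37 ± 0.24. It was -0.73 in Let7d and -0.15 in Let7e, and -0.56 for both without Let7e replicate 1. The other 6, mt-Nd1, mt-Nd2, mt-Nd4, mt-Nd5, mt-Nd6 and mt-Cytb, differed by -0.38 to 0.10, and 0 of the 7 had an unadjusted p under 0.05. Ribosomal RNA, measured here as CT010467.1, mt-Rnr1 and mt-Rnr2, took 3.68% to 13.98% of reads in let-7 and 8.03% to 12.6% in mi699a-5p. Since mt-Rnr1 and mt-Rnr2 are also encoded in the mitochondrial genome, this share is not separate from mitochondrial transcripts. Let7d replicate 3 was lowest and Let7e replicate 1 highest of all 11 mouse ids for ribosomal RNA and for the 7 OXPHOS genes summed. The part of ribosomal RNA in these values was not tested.

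Mitochondrial ribosomal proteins had a median of -0.08 over 76 genes, with 1 higher, Mrps27 (0.77 ± 0.31), and 1 lower, Mrpl32 (-0.58 ± 0.27, and -0.23 without mi699a-5p replicate 1), at an unadjusted p under 0.05. Each was 1.32% of that list, against 2.95% higher and 2.64% lower of all genes. In the pyruvate dehydrogenase and TCA cycle list, of 28 genes, Dld, the dihydrolipoamide dehydrogenase shared by several mitochondrial complexes, was lower (-0.79 ± 0.28) and Pdp2, a phosphatase that activates pyruvate dehydrogenase, was higher (0.52 ± 0.22). Among 18 antioxidant enzymes Prdx2 was higher (0.74 ± 0.29) and Sod1 lower (-0.40 ± 0.19, and -0.26 without mi699a-5p replicate 2). Glycolysis and fatty acid oxidation had 0 genes at an unadjusted p under 0.05, of 13 and 19.

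Genes of cytosolic translation had medians slightly above 0. Of 84 ribosomal protein genes 56 (66.7%) were above 0, against 49.9% of all genes, with a median of 0.06 and with 4 higher (4.76%, against 2.95% of all genes) and 0 lower (against 2.64%) at an unadjusted p under 0.05. Rpl3 averaged 1310 ± 236 CPM in let-7 and 974 ± 70.9 CPM in mi699a-5p, and Rps2 averaged 765 ± 133 CPM in let-7 and 577 ± 50.2 CPM in mi699a-5p (SD, n = 7 and 4). Reads of both can be shared with processed pseudogenes, and of Rpl10l (0.62 ± 0.27) with its parent gene. The median of the list was -0.02 in Let7d and 0.11 in Let7e. Per mouse id, the median level of the 84 genes, as log2(CPM + 1) centred per gene, overlapped between the groups. It ran from -0.21 to 0.32 in let-7 and from -0.56 to 0.44 in mi699a-5p. Of 56 translation factor genes 38 were above 0 (67.9%, against 49.9% of all genes). They were led by Eif2d and Eif1, the start codon selection factor (0.66 ± 0.19). At an unadjusted p under 0.05, 2 were higher (3.57%) and 0 lower. Of 56 genes of ribosome biogenesis 37 were above 0 (66.1%), with 2 higher and 2 lower at that threshold (3.57% each). Polr1b, a subunit of RNA polymerase I, was 0.68 ± 0.22 higher while Nop10, of the box H/ACA particle, was lower (-0.94 ± 0.32, and -0.50 without mi699a-5p replicate 1). The median levels per mouse id of these lists also overlapped between the groups. For ribosome biogenesis they ran from -0.14 to 0.12 in let-7 and from -0.14 to 0.084 in mi699a-5p.

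The list of small nucleolar RNA host genes and long noncoding RNAs had a median of 0.21 over 17 genes, with 4 higher and 0 lower at an unadjusted p under 0.05 (background 2.95% and 2.64%). In 3 of them, Snhg1, Snhg5 and Snhg12, all let-7 values lay above all mi699a-5p values (background 0.545%). Snhg1, which hosts several box C/D small nucleolar RNAs, had 196, 206 and 248 CPM in let-7 (lowest, median and highest), against 94.0, 137, 113 and 164 CPM in mi699a-5p. The log2 difference was 0.74 ± 0.19 (edgeR adjusted p = 0.720). Snhg12 was 1.08 ± 0.39 higher and Snhg5 0.51 ± 0.23 higher. The list's median was 0.16 in Let7d and 0.31 in Let7e, 0.44 without mi699a-5p replicate 1 and -0.03 without mi699a-5p replicate 4. Per mouse id, the median level of the 17 genes, as log2(CPM + 1) centred per gene, overlapped between the groups. It ran from -0.027 to 0.38 in let-7 and from -0.53 to 0.26 in mi699a-5p.

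**Figure D5:**
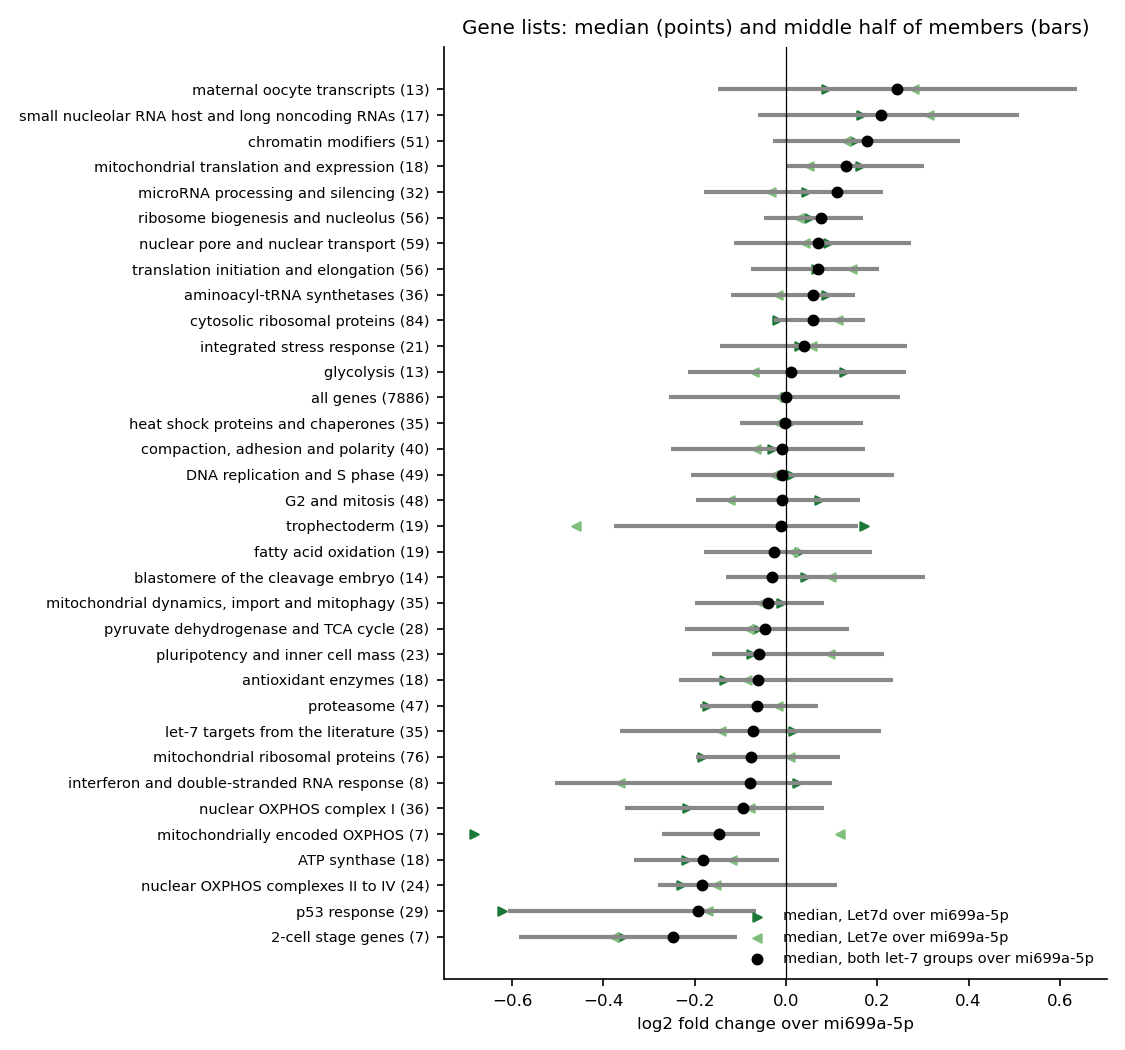
Median log2 fold change over mi699a-5p (x axis) of the members of each gene list with at least 7 measured genes (number in brackets), for both let-7 groups together (black), Let7d and Let7e (triangles); bars run between the quartiles of the members for both together. Medians for both let-7 groups together lie between -0.25 and 0.24, while those of a single group reach -0.68, and Let7d and Let7e part most for the mitochondrially encoded genes and the trophectoderm.

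Of 51 chromatin modifier genes 37 (72.5%) lay above 0, against 49.9% of all genes, and the median was 0.18. Per mouse id, their median level, as log2(CPM + 1) centred per gene, overlapped between the groups. It ran from -0.020 to 0.24 in let-7 and from -0.16 to 0.12 in mi699a-5p. Prmt1, the main arginine methyltransferase, was 1.11 ± 0.38 higher with no overlap, though 1 Let7e mouse id, at 254 CPM, carried much of the mean against 61.9 to 87.9 CPM in the other 6, and the difference was 0.67 without it. The acetyltransferase gene Kat5 was 0.95 ± 0.42 higher. Another acetyltransferase gene, Ep300, was lower, with 40.6, 62.4 and 86.9 CPM in let-7 (lowest, median and highest), against 89.2, 127, 91.3 and 122 CPM in mi699a-5p, and no overlap (-0.80 ± 0.24, edgeR adjusted p = 0.732). At an unadjusted p under 0.05, 2 of 59 nuclear pore and nuclear transport genes were higher and 2 lower (3.39% each). The shares of all genes were 2.95% higher and 2.64% lower. The 2 higher ones were the import receptor genes Tnpo2 (0.78 ± 0.24, no overlap) and Kpnb1 (0.65 ± 0.22). Another, Ipo13, was detected in 12 of 38 let-7 and 10 of 21 mi699a-5p cells and was lower (-1.97 ± 0.68, and -1.17 without mi699a-5p replicate 2).

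The pluripotency, trophectoderm and compaction lists had medians of -0.06, -0.01 and -0.01. For the trophectoderm the median was 0.17 in Let7d and -0.46 in Let7e over the same mi699a-5p mouse ids. Among 23 pluripotency genes, Dppa2, an activator of the early embryonic genome, had 493, 572 and 636 CPM in let-7 (lowest, median and highest), against 304, 323, 422 and 527 CPM in mi699a-5p. Of the 7 let-7 mouse ids, 6 lay above all of mi699a-5p (0.54 ± 0.17, edgeR adjusted p = 0.739). Of 19 trophectoderm genes Tead4, the transcription factor that directs that lineage, was higher (0.36 ± 0.17) and the tight junction gene Cldn6 lower (-1.04 ± 0.48, and -0.59 without mi699a-5p replicate 1). Of 40 genes of compaction, adhesion and polarity, Pard6b, an apical polarity protein, had 9.44, 14.9 and 32.9 CPM in let-7 (lowest, median and highest), against 2.07, 7.85, 2.21 and 0 CPM in mi699a-5p. Its groups did not overlap and it was detected in 27 of 38 let-7 and 8 of 21 mi699a-5p cells, at a log2 difference of 2.61 ± 0.87 (edgeR adjusted p = 0.772). Amot, an X-linked regulator of Hippo signalling, was lower (-1.08 ± 0.40), and Arpc2, a subunit of the Arp2/3 actin nucleator, was higher (0.36 ± 0.16).

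Cell cycle lists had medians of -0.01. At an unadjusted p under 0.05, 1 was higher and 1 lower of 48 genes of G2 and mitosis (2.08% each). Of 49 genes of DNA replication, 1 was higher (2.04%) and 2 were lower (4.08%) at that threshold. The shares of all genes were 2.95% higher and 2.64% lower. Plk1, the mitotic kinase, was lower (-0.60 ± 0.21) and Cenpa, the centromeric histone, higher (0.56 ± 0.26). Ccne1, the cyclin of S phase entry, had 431, 526 and 728 CPM in let-7 (lowest, median and highest), against 321, 421, 374 and 429 CPM in mi699a-5p, without overlap. The replication genes Pole2 and Mcm5 were lower (-1.03 ± 0.38 and -0.40 ± 0.19, and for Mcm5 -0.26 without mi699a-5p replicate 1). Of 29 p53 response genes 22 lay below 0 (75.9%, against 50.1% of all genes), with a median of -0.19. That median was -0.62 in Let7d and -0.17 in Let7e. Per mouse id, the median level of the 29 genes, as log2(CPM + 1) centred per gene, overlapped between the groups. It ran from -0.56 to 0.33 in let-7 and from -0.29 to 0.46 in mi699a-5p. At an unadjusted p under 0.05, 2 were lower (6.9%, against 2.64% of all genes). They were Btg2, an antiproliferative gene (-1.32 ± 0.53, and -0.59 without mi699a-5p replicate 2), and Cdkn1a, the inhibitor p21 (-0.61 ± 0.27).

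Maternal and stress-related lists showed no gene that passed. Of 13 measured maternal oocyte transcripts 8 lay above 0 (61.5%, against 49.9% of all genes). They were led by Zp3, a coat protein of the egg, at 71.0 ± 31.2 CPM in let-7 and 37.5 ± 20.2 CPM in mi699a-5p (0.92 ± 0.39). Of 7 genes of the 2-cell stage 6 lay below 0 (85.7%, against 50.1% of all genes), with a median of -0.25. The lowest, B020004J07Rik, had 0 to 36.1 CPM in let-7, against 19.3, 152, 4.29 and 16.3 CPM in mi699a-5p. Only mi699a-5p replicate 2 lay outside the let-7 range, and the log2 difference of -1.95 ± 0.91 was -0.10 without it. Nupr1, a stress-induced nuclear protein, was the 1 gene of 21 in the integrated stress response list at an unadjusted p under 0.05 (1.23 ± 0.50, and 0.77 without Let7e replicate 1). Heat shock proteins and the interferon response had 0 of 35 and 0 of 8. In the proteasome list of 47 genes, Psmd14, the deubiquitinase of the lid, was 0.44 ± 0.18 higher, and Psme1, of the PA28 activator, had 0 to 33.1 CPM in let-7 and 38.3 to 67.9 CPM in mi699a-5p, without overlap (-1.45 ± 0.70). At an unadjusted p under 0.05 that list held 1 higher gene (2.13%, against 2.95% of all genes) and 0 lower. Psme1 did not reach that threshold.

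Let7d and Let7e were also fitted apart against the same 4 mi699a-5p mouse ids, which the comparisons therefore share. edgeR called 0 genes in either, with 343 (4.35%) at an unadjusted p under 0.05 for Let7d and 501 (6.35%) for Let7e, and 0 with 379 (4.81%) for Let7e against Let7d. For Pink1 the log2 differences were 1.66 in Let7d and 1.43 in Let7e, for Cops7a 0.75 and 0.91, for Ankrd17 0.96 and 0.73, for Mga 0.69 and 1.18, and for Fundc1 -2.73 and -2.80. In Let7e against Let7d, a difference that takes in the mi699a-5p mouse ids only through the shared estimate of spread, Pink1 differed by -0.23 ± 0.40, Cops7a by 0.16 ± 0.21 and Fundc1 by -0.07 ± 0.86, each with an edgeR adjusted p of 0.99 or more.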

How the data were processed

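Single blastomeres were measured by Smart-seq2. The authors deposited unnormalized counts of reads for each gene in each cell. The submitters' processing notes list STAR, with no version, and the build GRCm38.p6; the counting program is not given in the sources used here. The table holds 7886 genes and 82 of 92 labelled cells, 60 of them in the 3 groups. The RPKM table was not used, because gene lengths implied by it differ between cells of one gene. A pair of columns of Let7d replicate 2 agreed within sampling noise (chi-square per gene 1.05, against 28.7 for the next pair) and was summed as 1 cell. A cell had 1575609 to 4950404 reads.

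Counts were summed by the mouse id in the labels and grouped by treatment. Whole-table tests used edgeR 4.0.16 in R 4.3.3 (TMM, filterByExpr, which removed 0 genes, robust quasi-likelihood, two-sided, Benjamini-Hochberg at 0.05; 9 residual degrees of freedom, common dispersion 0.264). Errors beside log2 fold changes are SEs, derived from the F statistic, and CPM are TMM-scaled. DESeq2 1.42.0 and limma 3.58.1 served as alternatives. The script was tested on simulated data, where 4 of 7686 unchanged genes were called. Seed matches were counted in the longest GENCODE M21 3′ UTR. The members, gene lists and the naming rule were chosen with earlier results of these data known. Named were the 15 genes per direction with the smallest p at a mean of at least 5 CPM, the 3 smallest-p genes of each list, 13 known let-7 targets or regulators, and the mitochondrially encoded genes; results for some of these are not reported here. Microinjection groups have their own mouse ids, so a batch that coincides with a group cannot be told apart from the injected microRNA.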

Additional observations from a re-analysis of the deposited data

Results flagged for a closer look

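In 14 of 216 groups of mouse ids examined, 1 value lay far from the rest of its group by Dixon's criterion, which chance meets in about 1 of 20 groups. In the let-7 group these were the low values of 4930522L14Rik (9.58 CPM) and Nop16, a nucleolar protein gene (74.4 CPM), both in Let7e replicate 3, the low value of Prdx2 in Let7d replicate 2 (39.9 CPM), the high value of Prmt1 in Let7e replicate 2 (254 CPM, next 87.9 CPM), the high value of Dffa in Let7e replicate 1 (50.9 CPM, next 24.1 CPM) and the reads per cell of Let7d replicate 1 (4071285). In the mi699a-5p group replicate 2 was high for Ankrd17 (174 CPM, next 141 CPM) and Urod (131 CPM), and replicate 3 was high for Ccnd1 (28.1 CPM, next 5.3 CPM). Replicate 1 was low for Tgfbr1 (4.07 CPM, next 25.9 CPM) and Dld (44.3 CPM), and replicate 4 was low for mt-Nd6 (276 CPM), Pole2 (18.1 CPM) and Snhg5 (48.0 CPM).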

How the results depend on the processing

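edgeR and limma called 0 genes under every alternative, while DESeq2 called 4 higher and 1 lower, and 2 to 17 genes when 1 mouse id was left out at a time. Genes at an unadjusted p under 0.05 numbered 366 to 482 with 1 mouse id left out, 516 for limma on means over cells and 500 with the negative control in the fit. Replicate numbers shared between groups gave correlations of -0.0916 to 0.128, with 1 of 10 over 0.1. Correlations from so few mouse ids per group cannot show whether the numbers pair them. The fit with the replicate block gave 400 genes at an unadjusted p under 0.05. Of 1332 gene values under other settings 1320 kept direction and side of the threshold, 5 became DESeq2 calls and 7 changed sign. These were Dicer1 (-0.0899) and Igf2bp3 (-0.20) for limma on means over cells, Dicer1 under the replicate block (-0.21), Igf2bp2 with the Y-linked covariate (0.015), and mt-Nd6 in the 3-group fit (-0.034), the fit with the negative control (-0.046) and limma (-0.091). With 1 mouse id left out, sign changes were seen for Cdc25a (-0.23 to 0.048), Dicer1 (-0.21 to 0.21), Igf2bp2 (-0.16 to 0.14), mt-Cytb (-0.37 to 0.052), mt-Nd1 (-0.31 to 0.052), mt-Nd4 (-0.24 to 0.19) and mt-Nd6 (-0.15 to 0.22). The cause was not tested. Keeping both near-identical columns gives the main sums, and leaving 1 out gave 441 genes. That setting and the DESeq2 fits without single mouse ids were chosen after seeing the data. Thinned to one depth, Fundc1 stood at -2.72 and Pard6b at 2.68, both detected in part of the cells.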
